A study of Mus musculus with 64 samples.

Results

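The 40 genes described here encode nuclear RNA-binding proteins that decide where the spliceosome cuts. They were chosen by symbol, and every one of the 40 was found among the 55487 genes of the count files and passed the filter on low counts, which left 14537 genes for testing. By role they fall into 10 SR proteins (Srsf1, Srsf2, Srsf3, Srsf4, Srsf5, Srsf6, Srsf7, Srsf9, Srsf10 and Srsf11), 2 SR-like proteins (Tra2a and Tra2b), 19 heterogeneous nuclear ribonucleoproteins or hnRNPs (Hnrnpa0, Hnrnpa1, Hnrnpa2b1, Hnrnpa3, Hnrnpab, Hnrnpc, Hnrnpd, Hnrnpdl, Hnrnpf, Hnrnph1, Hnrnph2, Hnrnpk, Hnrnpl, Hnrnpm, Hnrnpr, Hnrnpu, Hnrnpul1, Ptbp1 and Ptbp3), 3 factors that recognise the 3′ end of the intron (U2af1, U2af2 and Sf1) and 6 subunits of the SF3A and SF3B complexes (Sf3a1, Sf3a2, Sf3a3, Sf3b1, Sf3b2 and Sf3b3).

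Messenger RNA of these genes was measured by RNA-seq in bone marrow-derived macrophages (BMMs), which were grown from mouse bone marrow in medium conditioned by L929 fibroblasts, a source of macrophage colony-stimulating factor. Wild-type cells (Ahr+/+) came from female C57BL/6JRj mice and knockout cells (Ahr-/-) from C57BL/6 mice that lack the aryl hydrocarbon receptor in every cell and had been crossed back to the wild-type strain in-house. Animals were 8 to 12 weeks old, with 4 mice per genotype. BMMs were exposed for 6 h to vehicle (DMSO, 0.01%), to 1 µM benzo[a]pyrene (BaP) or to 10 µM indole-3-carbinol (I3C), and then activated with 10000000 heat-killed bacteria per ml of Salmonella enterica, serovar Enteritidis (hk S.E.), until 3 h or 20 h post activation (p.a.). A vehicle group without ligand and without hk S.E. was taken at each time, so that 2 genotypes, 2 times and 4 treatments gave 16 groups of 4 libraries and 64 libraries in all.

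SR proteins carry an RNA recognition motif and a domain rich in arginine and serine, bind exonic enhancers and recruit the splicing machinery, whereas many hnRNPs bind silencers and antagonise them. SF1 and the U2AF dimer mark the branch point, the polypyrimidine tract and the terminal AG of an intron before the U2 snRNP, with its SF3A and SF3B subunits, takes over. Many genes of both families limit their own product through alternative exons with early stop codons, which send the transcript to nonsense-mediated decay (NMD). In macrophages a bacterial stimulus switches on a large set of genes within hours, and splicing of the new transcripts is one of the steps that set how fast they appear. AhR, the aryl hydrocarbon receptor, moves into the nucleus when a ligand binds it and acts on genes through aryl hydrocarbon response elements (AHREs). BaP is a polycyclic aromatic hydrocarbon and a strong AhR ligand, and I3C is a plant indole whose products bind AhR.

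Libraries held 12152496 to 50644601 counts on genes, apart from 1 of 233047331 (unactivated Ahr+/+, 20 h, replicate 4), and the least covered member in any library still had 343 counts. Levels are given as CPM, counts scaled to library size, with TMM factors that set libraries level by the bulk of genes. Differences are log2 fold changes with their standard errors (SE) from edgeR's quasi-likelihood test, with p-values adjusted over all 14537 genes and a call at an adjusted p below 0.01. Macrophage marker genes summed to 18600 to 35800 CPM in every library, and summed T cell, B cell, NK cell, erythroid and mast cell markers reached at most 1.12 CPM. Of the macrophage genes, Lyz2 alone held 9530 to 26600 CPM, while Mertk and Mrc1 were as low as 5.23 and 0.0708 CPM. Fibroblast genes reached more than the other lists named, with Col1a2 up to 4.28, Col1a1 up to 3.54, Dcn up to 2.4 and Col3a1 up to 0.476 CPM. A neutrophil list rose from 15.7 to 43.9 CPM in unactivated Ahr+/+ BMMs to 111 to 261 CPM at 3 h p.a. after DMSO. It was 115 to 118 CPM in activated Ahr-/- BMMs after DMSO at 3 h. Over all libraries, its genes Ly6g, Mpo and Elane lay at 0 to 0.482, 0 to 0.275 and 0 to 0.197 CPM. Its other genes reached more, with S100a9 up to 111, S100a8 up to 73, Ngp up to 56.4, Ltf up to 27.7 and Camp up to 5.29 CPM. The part of neutrophils in the results was not tested. The known AhR target Ahrr, which encodes the AhR repressor, was higher with BaP than with DMSO in Ahr+/+ BMMs at 3 h p.a. by 3.36 on the log2 scale, whereas its estimate was -0.33 without a call in Ahr-/- BMMs. Counts on the exons of Ahr itself were higher in Ahr-/- BMMs by 0.88 at 3 h and 0.93 at 20 h p.a., so the sum over all exons does not check the deletion.

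The scaling decides the direction of many activation results and is therefore given first. Unactivated Ahr+/+ libraries at 3 h had a mean TMM factor of 1.29 and activated ones 0.805, and at 20 h the factors were 1.3 and 1.01. As a share of all counts on genes, the 40 members took 0.676% ± 0.033 (SD, n = 4) in unactivated Ahr+/+ BMMs of the 3 h time point and 0.586% ± 0.0123 in activated ones. At 20 h the share was 0.668% ± 0.0145 unactivated, compared with 0.488% ± 0.0055 activated. Ahr-/- BMMs of 3 h had shares of 0.668% ± 0.0559 unactivated and 0.61% ± 0.0184 activated, and those of 20 h had 0.701% ± 0.0245 unactivated and 0.601% ± 0.0234 activated. The mean log2 CPM of the members on the TMM scale went the other way at 3 h, from 6.71 ± 0.0763 to 7.10 ± 0.0259 in Ahr+/+ BMMs and from 6.65 ± 0.0902 to 7.16 ± 0.0147 in Ahr-/- BMMs. Changes on the TMM scale are changes relative to the bulk of genes, and the counts of members called for activation and genotype are given below with their values under library totals alone. Shares of all genes called are given for the TMM scale only. Counts with library totals therefore have no background beside them and are not read as particular to the members.

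**Figure D1:**
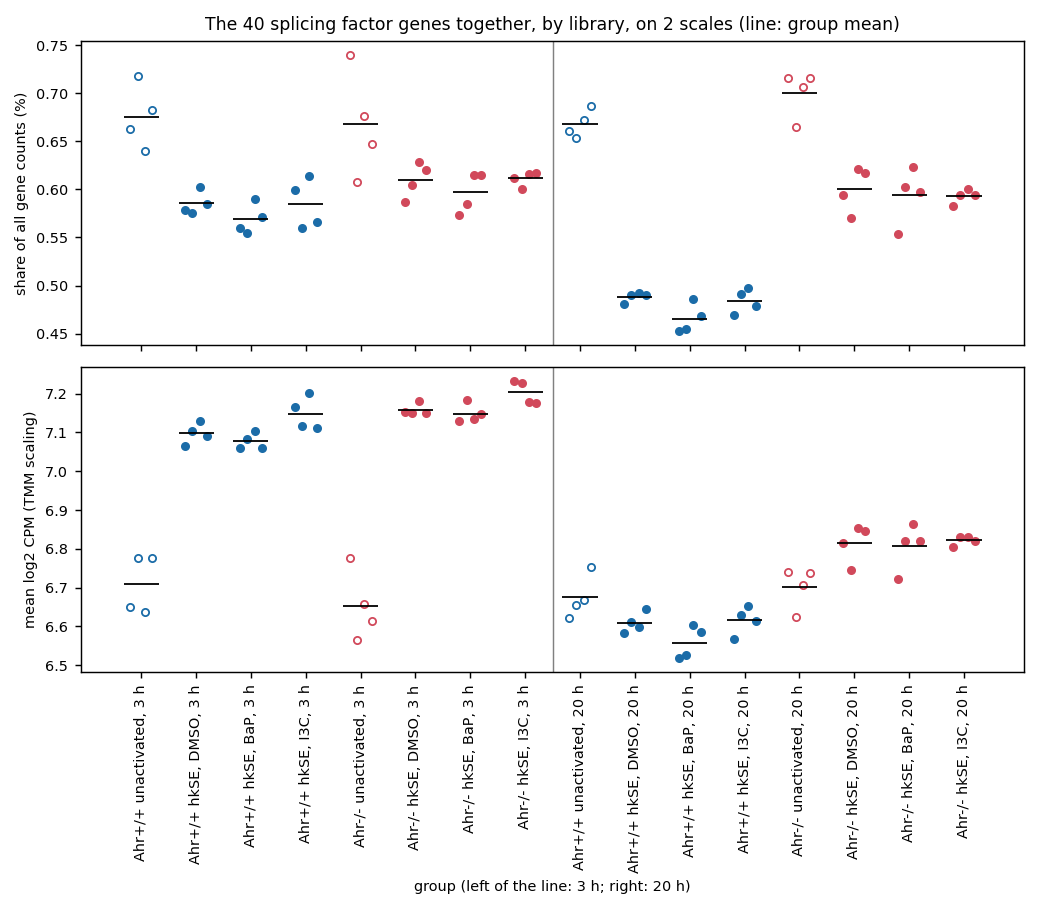
Upper panel, summed counts of the 40 genes as a percentage of all gene counts; lower panel, their mean log2 CPM after TMM scaling; each point is 1 of 64 libraries, 4 per group, and each line a group mean. On the share of counts the activated libraries sit below the unactivated ones, with an overlap only in Ahr-/- BMMs at 3 h, whereas on the TMM scale they sit above them at 3 h.

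Between genes, levels can be compared only per kilobase of exon. On that scale, averaged over the 16 group means, Hnrnpab was highest with 103 CPM per kb, followed by Hnrnpk with 69.6, Hnrnpa2b1 with 68.3 and Hnrnpa1 with 59.05, all of them abundant hnRNPs of the nucleus. The lowest were Hnrnpr (2.06 CPM per kb, on an exon length of 22.2 kb), Hnrnpa3 (7.27) and Sf3a1 (9.08). Between the lowest and the highest group mean, 13 of the 40 members spanned more than 2-fold. The widest spans were those of Tra2a (9.95-fold), Srsf3 (4.45-fold), Tra2b (3.31-fold) and Sf3b3 (2.91-fold), and the narrowest was that of Hnrnpul1 (1.19-fold). The group with the highest mean was an activated group at 3 h for 28 members, and the lowest mean stood in an activated group at 20 h for 17 members, both on the TMM scale.

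The members share features of gene structure that the choice by symbol did not use. In the GENCODE M21 annotation, 25 of the 40 (62.5%) have a transcript classed as an NMD substrate, compared with 20.88% of 21903 protein-coding genes in the count files, and 31 (77.5%) have a retained-intron transcript, compared with 41.63%. The protein-coding genes compared include genes that did not pass the filter on low counts. No comparison was made with the genes tested or with genes of like level, so these shares are not read as particular to the members. Gene-level counts do not separate these transcripts from the coding ones. For 20 members the annotation holds 93 pseudogenes of at least 90% identity over 300 bases, most of them for Hnrnpa3 (37), and the pseudogenes' counts came to 37.6% of Hnrnpa3's own, 11.3% of those of U2af1, 9.07% of Hnrnpk and 7.91% of Srsf5, so that these 4 levels are uncertain. Exons of Hnrnpm, Hnrnpa3 and Sf3b3 overlap another annotated gene on the same strand, and the strand-aware counting leaves such shared bases unassigned.

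Since the series asks what AhR and its ligands do to transcription, the promoter windows of the 4 members that carried the largest activation or genotype differences are shown, as 250 bases before the RefSeq transcription start (GRCm38.p6), 5′ to 3′ on the strand of the gene. Capitals mark each match to the AHRE core GCGTG or its reverse complement CACGC. Tra2a lies at chr6:49243924-49264033 on the minus strand (window chr6:49264053-49264302, minus strand), Tra2b at chr16:22244549-22266005 on the minus strand (window chr16:22266006-22266255, minus strand), Srsf3 at chr17:29032628-29043373 on the plus strand (window chr17:29032410-29032659, plus strand) and Hnrnpa1 at chr15:103240432-103246692 on the plus strand (window chr15:103240147-103240396, plus strand).
Tra2a: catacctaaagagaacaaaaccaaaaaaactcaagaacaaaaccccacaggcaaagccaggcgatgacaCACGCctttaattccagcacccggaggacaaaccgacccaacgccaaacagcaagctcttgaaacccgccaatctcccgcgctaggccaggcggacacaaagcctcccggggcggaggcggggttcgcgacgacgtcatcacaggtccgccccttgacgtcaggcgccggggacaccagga
Tra2b: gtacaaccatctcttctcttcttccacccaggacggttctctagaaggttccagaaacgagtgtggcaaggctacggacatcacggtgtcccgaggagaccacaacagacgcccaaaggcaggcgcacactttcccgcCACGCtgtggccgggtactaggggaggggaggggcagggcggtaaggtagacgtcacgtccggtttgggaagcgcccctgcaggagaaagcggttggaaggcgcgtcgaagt
Srsf3: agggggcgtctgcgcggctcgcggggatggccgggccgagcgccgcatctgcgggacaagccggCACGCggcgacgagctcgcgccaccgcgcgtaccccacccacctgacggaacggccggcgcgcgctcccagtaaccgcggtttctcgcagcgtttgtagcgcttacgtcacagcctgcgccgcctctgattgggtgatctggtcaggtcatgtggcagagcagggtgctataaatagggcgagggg
Hnrnpa1: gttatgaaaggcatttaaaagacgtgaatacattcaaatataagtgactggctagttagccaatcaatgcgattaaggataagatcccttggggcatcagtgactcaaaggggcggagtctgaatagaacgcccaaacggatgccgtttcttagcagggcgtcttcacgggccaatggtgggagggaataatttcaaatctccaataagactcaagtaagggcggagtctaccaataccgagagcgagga
The windows of Tra2a, Tra2b and Srsf3 hold 1 match each and that of Hnrnpa1 holds none. Of 52 windows found for 38 of the 40 members, 51.9% held the core on either strand, against 43.7% of the windows of genes tested and 28.2% of all 32851 windows. Some genes have several windows, which can overlap. Counted by gene, 20 of 38 members held the core, against 4940 of the 10014 genes tested that had a window. Shares of the other motifs are given by window only. The ETS motif CCGGAAG was in 28.8% of the members' windows, against 13.5% and 6.91%, the GC box GGGCGG in 75%, against 56.2% and 32.7%, and the CCAAT box in 53.8%, against 35.4% and 33.8%. The NF-kB motif was in 1.92% of the members' windows, against 7.06% and 5.93%, the E-box CACGTG in 7.69%, against 8.28% and 6.02%, the cAMP response element TGACGTCA in 1.92%, against 2.52% and 1.55%, and TATAAA in 7.69%, against 6.57% and 12.4%. The members' windows were also richer in G and C, with a median of 63.8% against 59.6% and 52.4%, and in CpG, with a median of 22.5 against 15 and 6 per window. A match describes letters and not a bound site.

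The first question is how the splicing factors responded to hk S.E. in Ahr+/+ BMMs. At 3 h p.a., 23 of the 40 members were higher than in unactivated BMMs and 3 were lower on the TMM scale, where 24.2% and 32.3% of all genes tested were called in these directions. With library totals alone the counts turned to 3 higher and 21 lower, and the shares of all genes on that scale are not given. The median log2 fold change of the members was 0.40, and that of all genes -0.10; with library totals the medians were -0.27 and -0.78. The members thus stood 0.51 above the median gene at 3 h, and 30 of 40 lay above that median. With library totals the distance was 0.50. A change of scaling shifts all genes by nearly the same amount. The distance could therefore hardly change, and its value with library totals is no separate check. Of the 23 members called higher, 3 were called higher also with library totals (Tra2a, Tra2b and Srsf3), 9 stayed positive without a call and 11 turned negative. All 3 members called lower (Hnrnpl, Hnrnpr and Sf3a1) were called lower on both scales.

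On the TMM scale the SR-like proteins had the largest differences, whereas with library totals Tra2a was followed by Hnrnpl (-1.48), Hnrnpr (-1.15) and Sf3a1 (-1.12). Tra2a and Tra2b are vertebrate homologues of the fly sex-determination factor transformer-2 and bind exonic enhancers rich in GAA. In the 4 unactivated Ahr+/+ libraries at 3 h, Tra2a stood at 45.6, 55.9, 37.4 and 52.1 CPM, and in the 4 activated ones at 249, 272, 211 and 244 CPM. Every activated library lay above every unactivated one, and the means differed 5.11-fold (log2 fold change 2.35 ± 0.13 (SE), adjusted p = 4.73e-23; 1.68 with library totals). Its paralogue Tra2b had 68.2, 81.3, 55.6 and 73.2 CPM unactivated and 169, 177, 165 and 169.9 CPM activated, again without overlap (log2 fold change 1.29 ± 0.13 (SE), adjusted p = 2.05e-13; 0.62 with library totals). Here and below, genes shown by library were mostly picked for large differences or a small p. That their groups do not overlap is therefore a description and no further support. Shares of all genes without overlap are not given.

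Of the 10 SR proteins, 5 were called higher at 3 h, none was called lower, and the log2 fold changes ran from -0.30 (Srsf9) to 1.08 (Srsf3). Srsf3, the smallest SR protein and an adaptor for mRNA export, had 125, 141, 118 and 136 CPM in unactivated and 263, 284, 274 and 283 CPM in activated BMMs (log2 fold change 1.08 ± 0.09 (SE), adjusted p = 4.55e-15; 0.41 with library totals). The groups did not overlap. Srsf7, its closest relative and likewise an export adaptor, was higher by 0.72 ± 0.07 (adjusted p = 1.17e-13), a value that was 0.05 with library totals. Srsf5 (0.68), Srsf4 (0.50) and Srsf6 (0.40) were the other SR genes called. Srsf1, the founding SR protein, had a log2 fold change of -0.26 and Srsf2, which also acts in transcription elongation, one of -0.13, and neither passed the test.

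Among the 19 hnRNPs, 10 were called higher and 2 lower at 3 h. Hnrnpab, which encodes an abundant shuttling hnRNP, had 218, 218, 220.1 and 239.9 CPM in unactivated and 398, 394, 395 and 404 CPM in activated libraries (log2 fold change 0.83 ± 0.07 (SE), adjusted p = 4.87e-15; 0.16 with library totals), and the groups were apart. Hnrnpl binds CA repeats and is known for skipping of the variable exons of CD45. It fell, from 149, 149, 161 and 160.3 CPM to 81.3, 87.04, 96.6 and 89.6 CPM (log2 fold change -0.80 ± 0.06 (SE), adjusted p = 7.60e-17; -1.48 with library totals), with each activated library below each unactivated one. Hnrnpr, whose product binds the survival motor neuron protein, stood at 49.7, 61.3, 47.1 and 53.6 CPM and then at 35.6, 40.7, 39.5 and 36.9 CPM (log2 fold change -0.47 ± 0.09 (SE), adjusted p = 3.02e-06), also without overlap.

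The paralogues of the A/B group differed. Hnrnpa1, which silences exons with UAG-rich motifs, had 145, 156, 145 and 161 CPM unactivated and 232, 255, 265 and 248 CPM activated (log2 fold change 0.72 ± 0.09 (SE), adjusted p = 1.90e-09; 0.05 with library totals). Hnrnpa2b1, which binds related motifs, had a log2 fold change of 0.40 ± 0.09 (adjusted p = 7.21e-05) that became -0.27 with library totals. Hnrnpa3 was at 0.12 ± 0.11 and not called. In the next pair, Hnrnpd, which encodes the AU-rich element binding protein AUF1, was higher by 0.76 ± 0.08 and its relative Hnrnpdl by 0.31 ± 0.08, the latter turning to -0.36 with library totals. Of the G-run binding pair, Hnrnph2 was called (0.83 ± 0.07) and Hnrnph1 was not (0.20 ± 0.10), and the difference between the 2 genes was not tested. Ptbp1, the polypyrimidine tract binding protein, was called at 0.39 ± 0.07. Ptbp3, its relative in blood cells, had a larger estimate (0.89 ± 0.33, adjusted p = 0.017) without a call, with 155 to 295 CPM in unactivated and 378 to 413 CPM in activated libraries. Hnrnpm, an hnRNP known to hold back splicing of innate immune transcripts in macrophages, was higher by 0.51 ± 0.08 and at -0.17 with library totals.

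All 3 factors of the 3′ splice site were called higher at 3 h. Sf1, the branch point binding protein, was at 0.58 ± 0.08, U2af1, which reads the terminal AG, at 0.40 ± 0.09 and U2af2, which binds the polypyrimidine tract, at 0.38 ± 0.08, and each of them was negative with library totals (-0.10, -0.27 and -0.29). Within SF3A and SF3B the subunits went apart. Sf3b1, the subunit that clamps the branch site helix, was higher by 0.78 ± 0.14, Sf3a3 by 0.73 ± 0.08 and Sf3b3 by 0.68 ± 0.06, with library totals at 0.10, 0.06 and 0.01. Sf3a1, the largest subunit of SF3A, fell from 63.7, 60.8, 66.6 and 64.9 CPM to 49.3, 48.7, 48.4 and 41.4 CPM (log2 fold change -0.45 ± 0.11 (SE), adjusted p = 0.000379), and the groups did not overlap. Sf3a2 (-0.02) and Sf3b2 (-0.13) were not called.

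**Figure D2:**
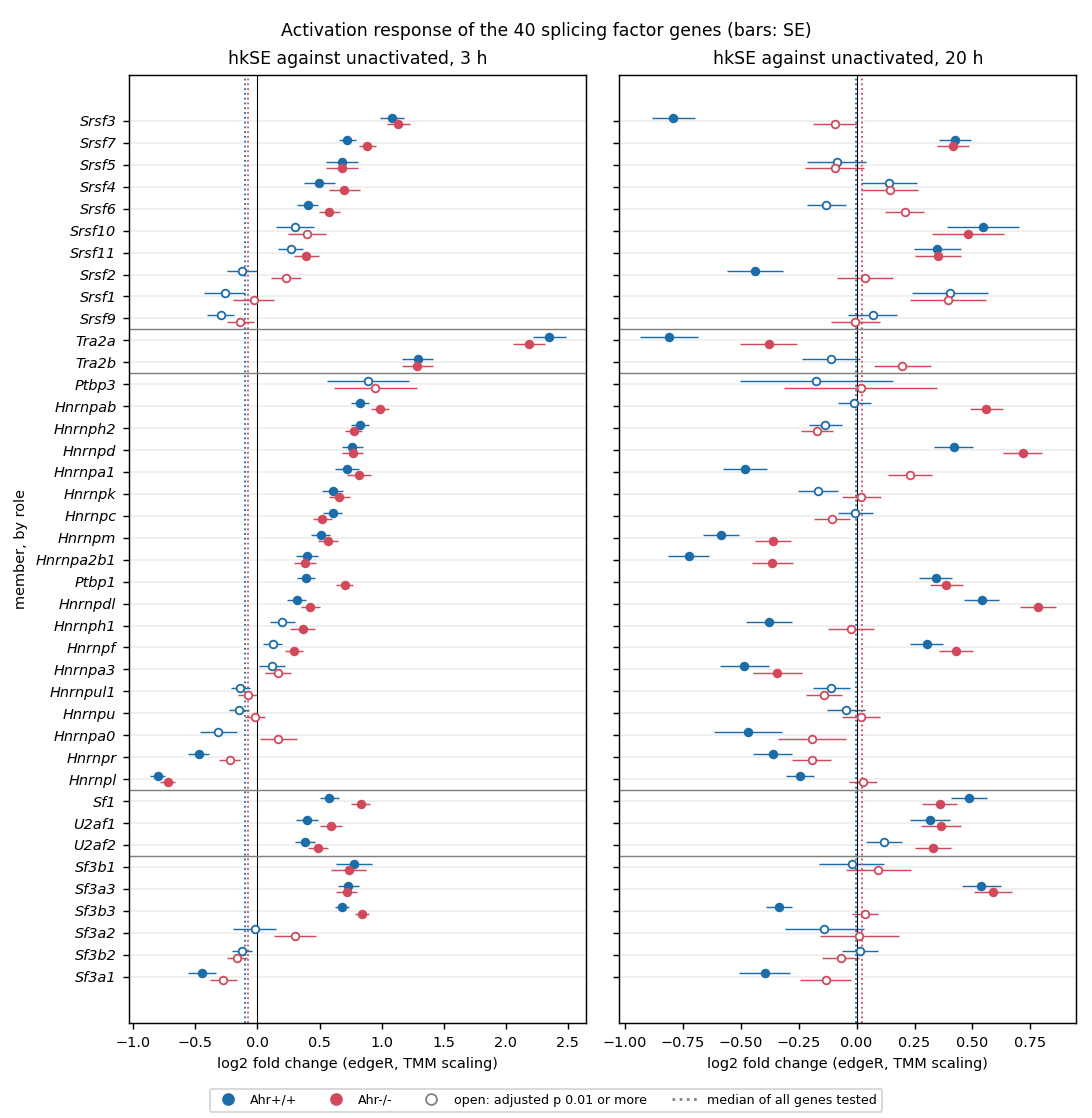
Log2 fold change of each of the 40 genes on activation with hk S.E. (edgeR, TMM scaling, bars SE), at 3 h and 20 h, in Ahr+/+ and Ahr-/- BMMs; filled points passed an adjusted p of 0.01 and the dotted line is the median of all genes tested. Tra2a reaches 2.35 at 3 h and -0.81 at 20 h in Ahr+/+ BMMs; with library totals alone 11 of the 23 genes called higher at 3 h in Ahr+/+ BMMs turn negative.

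At 20 h p.a. the picture in Ahr+/+ BMMs was mixed. On the TMM scale 10 members were higher and 13 lower than in unactivated BMMs of that time, where 29.9% and 28.7% of all genes were called, and library totals gave 0 higher and 25 lower. The median of the members was -0.10 and that of all genes -0.00, or -0.46 and -0.37 with library totals. All 13 members called lower were called lower also with library totals, and of the 10 called higher 6 stayed positive without a call and 4 turned negative.

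The 4 largest falls at 20 h were those of members called higher at 3 h on the TMM scale. Tra2a stood at 43.1, 47.1, 42.7 and 49.4 CPM in unactivated and at 24.5, 25.4, 28.04 and 26.1 CPM in activated Ahr+/+ libraries (log2 fold change -0.81 ± 0.13 (SE), adjusted p = 1.14e-07). Srsf3 stood at 111, 117, 119.7 and 132 CPM and at 65.3, 70.8, 68.7 and 72.4 CPM (log2 fold change -0.79 ± 0.09 (SE), adjusted p = 1.24e-10). For both genes all activated libraries were below all unactivated ones. Hnrnpa2b1 had 420.4, 435, 456 and 491 CPM unactivated and 264, 275, 258 and 294 CPM activated (log2 fold change -0.72 ± 0.09 (SE), adjusted p = 2.20e-10), and Hnrnpm had 139, 141, 140.4 and 156 CPM and 96.4, 92.5, 93.6 and 102 CPM (log2 fold change -0.59 ± 0.08 (SE), adjusted p = 3.11e-09). Neither gene's groups overlapped. The falls of Tra2a, Srsf3, Hnrnpa2b1 and Hnrnpm were -1.18, -1.16, -1.09 and -0.95 with library totals. The other members called lower were Hnrnpa1 (-0.48), Hnrnpa3 (-0.48), Hnrnpa0 (-0.47), Srsf2 (-0.44), Sf3a1 (-0.40), Hnrnph1 (-0.38), Hnrnpr (-0.36), Sf3b3 (-0.33) and Hnrnpl (-0.24).

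The members called higher at 20 h had smaller differences. Srsf10, an SR protein that represses splicing when it is dephosphorylated, had 41.2, 47.3, 45.7 and 50.7 CPM unactivated and 69.3, 69.2, 64.1 and 67.4 CPM activated (log2 fold change 0.55 ± 0.15 (SE), adjusted p = 0.00169; 0.18 with library totals). Hnrnpdl had 69.02, 70.4, 66.03 and 71.1 CPM and 99.4, 98.3, 99.4 and 105 CPM (log2 fold change 0.54 ± 0.08 (SE), adjusted p = 1.04e-08; 0.17 with library totals). Sf3a3, another SF3A subunit, had 37.9, 39.1, 43.1 and 48.9 CPM and 56.8, 57.04, 61.3 and 70.5 CPM (log2 fold change 0.54 ± 0.08 (SE), adjusted p = 1.18e-07; 0.17 with library totals). In none of these 3 cases was the rise called with library totals. Sf1 had 137, 143, 135 and 129.6 CPM unactivated and 196, 202, 183 and 181 CPM activated (log2 fold change 0.49 ± 0.08 (SE), adjusted p = 1.50e-07; 0.12 with library totals). The remaining members called higher were Srsf7, Srsf11, Hnrnpd, Hnrnpf, Ptbp1 and U2af1, at 0.30 to 0.42, of which Srsf11, Hnrnpf, Ptbp1 and U2af1 were negative with library totals.

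Set beside each other, the 40 members split by time in Ahr+/+ BMMs on the TMM scale. Called higher at both times were 7 members (Hnrnpd, Hnrnpdl, Ptbp1, Sf1, Sf3a3, Srsf7 and U2af1), while 6 were called higher at 3 h and lower at 20 h (Tra2a, Srsf3, Hnrnpa1, Hnrnpa2b1, Hnrnpm and Sf3b3), 10 were higher at 3 h only, 3 lower at both times (Hnrnpl, Hnrnpr and Sf3a1), 3 higher at 20 h only, 4 lower at 20 h only and 7 were called at neither time. Of the 40 members, 20 had the same sign at both times, against 65.52% of all genes. Shares of all genes with these patterns of calls are not given. The test of the difference itself, activation at 20 h minus activation at 3 h, called 1 member higher and 17 lower, against 26.5% and 21.3% of all genes, and 9 higher and 11 lower with library totals. It was log2 fold change -3.16 ± 0.18 (SE), adjusted p = 7.57e-22 for Tra2a, log2 fold change -1.88 ± 0.13 (SE), adjusted p = 5.90e-18 for Srsf3, log2 fold change -1.40 ± 0.18 (SE), adjusted p = 9.24e-10 for Tra2b and log2 fold change -1.21 ± 0.13 (SE), adjusted p = 2.88e-11 for Hnrnpa1. These 4 were called in the same direction with library totals (-2.85, -1.57, -1.10 and -0.90). The 1 member called higher was Hnrnpl (0.56), whose fall was smaller at 20 h; with the replicate number as a block 3 members were called higher. Unactivated Ahr+/+ BMMs at 20 h against 3 h gave 1 called member, against 6.07% of all genes. It was Srsf5, which had 96.9, 114, 110.2 and 138 CPM at 3 h and 155, 179, 175 and 203 CPM at 20 h (log2 fold change 0.63 ± 0.13 (SE), adjusted p = 0.000359), and the replicate block added 1 call.

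The second question is whether the response needed AhR. In Ahr-/- BMMs at 3 h p.a., 26 members were called higher and 1 lower on the TMM scale, against 25.5% and 31.8% of all genes, and library totals gave 6 and 15. The member called lower was Hnrnpl, and the replicate block called 2 lower. All 26 members called in Ahr+/+ BMMs at 3 h had the same sign in Ahr-/- BMMs, and 24 of them were called there. Shares of the genes called in Ahr+/+ BMMs that kept their sign or call in Ahr-/- BMMs are not given. Among all 40 members 37 shared their sign, against 91.1% of all genes. Tra2a had 62.1, 37.04, 45.96 and 42.6 CPM in unactivated and 204, 179, 244 and 228 CPM in activated Ahr-/- libraries (log2 fold change 2.19 ± 0.13 (SE), adjusted p = 8.09e-22). Srsf3 had 142, 86.6, 117 and 111 CPM and 236, 227, 277 and 264 CPM (log2 fold change 1.13 ± 0.09 (SE), adjusted p = 8.83e-16). Hnrnpl had 146, 179.8, 163 and 158 CPM and 100.5, 99.4, 96.1 and 95.9 CPM (log2 fold change -0.72 ± 0.06 (SE), adjusted p = 3.41e-15). None of these 3 genes had overlapping groups, and all 3 calls held with library totals (1.51, 0.46 and -1.39). Across the 40 members the log2 fold changes of the genotypes at 3 h, which share no library, had a Pearson r of 0.977, beside 0.951 across all genes, as a description over genes of the same 8 mice. The interaction of activation with genotype at 3 h called none of the 40 members with edgeR, against 0.0138% of all genes, with 6 members at an unadjusted p below 0.05, 0 called by DESeq2, 0 by limma on the VST values and 0 with library totals. Here and below, percentages of all genes called refer to the adjusted p. Shares of all genes at an unadjusted p below 0.05 are not given. Counts of members at that limit are therefore not read as particular to the members.

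At 20 h p.a., 12 members were called higher and 4 lower in Ahr-/- BMMs on the TMM scale, against 28.3% and 26% of all genes, and library totals gave 4 and 19. The 4 called lower were Tra2a (-0.38), Hnrnpa2b1 (-0.36), Hnrnpm (-0.36) and Hnrnpa3 (-0.34), all of which were called lower in Ahr+/+ BMMs as well. Leaving out DMSO replicate 1 or 2, or unactivated replicate 3 or 4, left 2 called lower. All 10 members called higher in Ahr+/+ BMMs were also called higher in Ahr-/- BMMs. Shares of all genes called in the same direction in both genotypes are not given. The sign was shared between the genotypes by 26 members, against 87.71% of all genes. The change of the response between the times called 2 members higher and 19 lower in Ahr-/- BMMs, against 25.2% and 19.4% of all genes, and 9 and 7 with library totals. It was log2 fold change -2.57 ± 0.18 (SE), adjusted p = 2.46e-18 for Tra2a, log2 fold change -1.23 ± 0.13 (SE), adjusted p = 1.48e-11 for Srsf3, log2 fold change -1.09 ± 0.17 (SE), adjusted p = 4.35e-07 for Tra2b and log2 fold change -0.95 ± 0.10 (SE), adjusted p = 5.93e-12 for Hnrnph2. Of the 2 members called higher, Hnrnpl (0.75) was called on every alternative run and Hnrnpdl (0.36) was lost when unactivated replicate 1 of 3 h, any of the 4 activated libraries of 3 h or DMSO replicate 3 of 20 h was left out, and also with RLE scaling, no filter on low counts, the groups compared only, DESeq2 and limma.

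The interaction of activation with genotype at 20 h called 4 members, all with a response that was more positive in Ahr-/- BMMs, against 2.08% of all genes more positive and 2.33% more negative, and library totals gave 4 more positive and 0 more negative. For Hnrnpa1, unactivated libraries at 20 h had 149, 159, 169 and 185 CPM in Ahr+/+ and 185, 142, 146 and 148 CPM in Ahr-/- BMMs. The activated ones had 108, 113, 126 and 127 CPM in Ahr+/+ and 202, 191, 163 and 172 CPM in Ahr-/- BMMs. Thus Hnrnpa1 fell in Ahr+/+ BMMs with no overlap. In Ahr-/- BMMs its groups overlapped, but each of the 4 activated libraries lay above the unactivated one with the same replicate number (log2 fold change 0.23 ± 0.09 (SE), adjusted p = 0.0287, and 0.23 ± 0.08, adjusted p = 0.0104 with the replicate block, both without a call). The difference between the genotypes was called (interaction 0.71 ± 0.13, adjusted p = 0.0002).
Srsf3 had 139, 117, 138 and 146 CPM unactivated and 117, 124, 124 and 140.4 CPM activated in Ahr-/- BMMs, beside the fall in Ahr+/+ BMMs given above (interaction 0.70 ± 0.13, adjusted p = 0.000253). Hnrnpab had 209.7, 186, 225 and 231 CPM unactivated and 197, 207, 206 and 235 CPM activated in Ahr+/+ BMMs. In Ahr-/- BMMs it had 226, 185, 187 and 186 CPM and 314, 277, 283 and 282 CPM (interaction 0.57 ± 0.10, adjusted p = 0.000105). Sf3b3, a scaffold subunit of SF3B, was called lower in Ahr+/+ BMMs (-0.33) and not called in Ahr-/- BMMs (0.04), with values of 117, 112, 125 and 119 CPM and 95.6, 94.2, 91.97 and 94.2 CPM in Ahr+/+ and 115, 104, 111 and 108 CPM and 115, 115, 107 and 112 CPM in Ahr-/- BMMs (interaction 0.37 ± 0.08, adjusted p = 0.0011). With the groups compared only, 2 members were called.

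**Figure D3:**
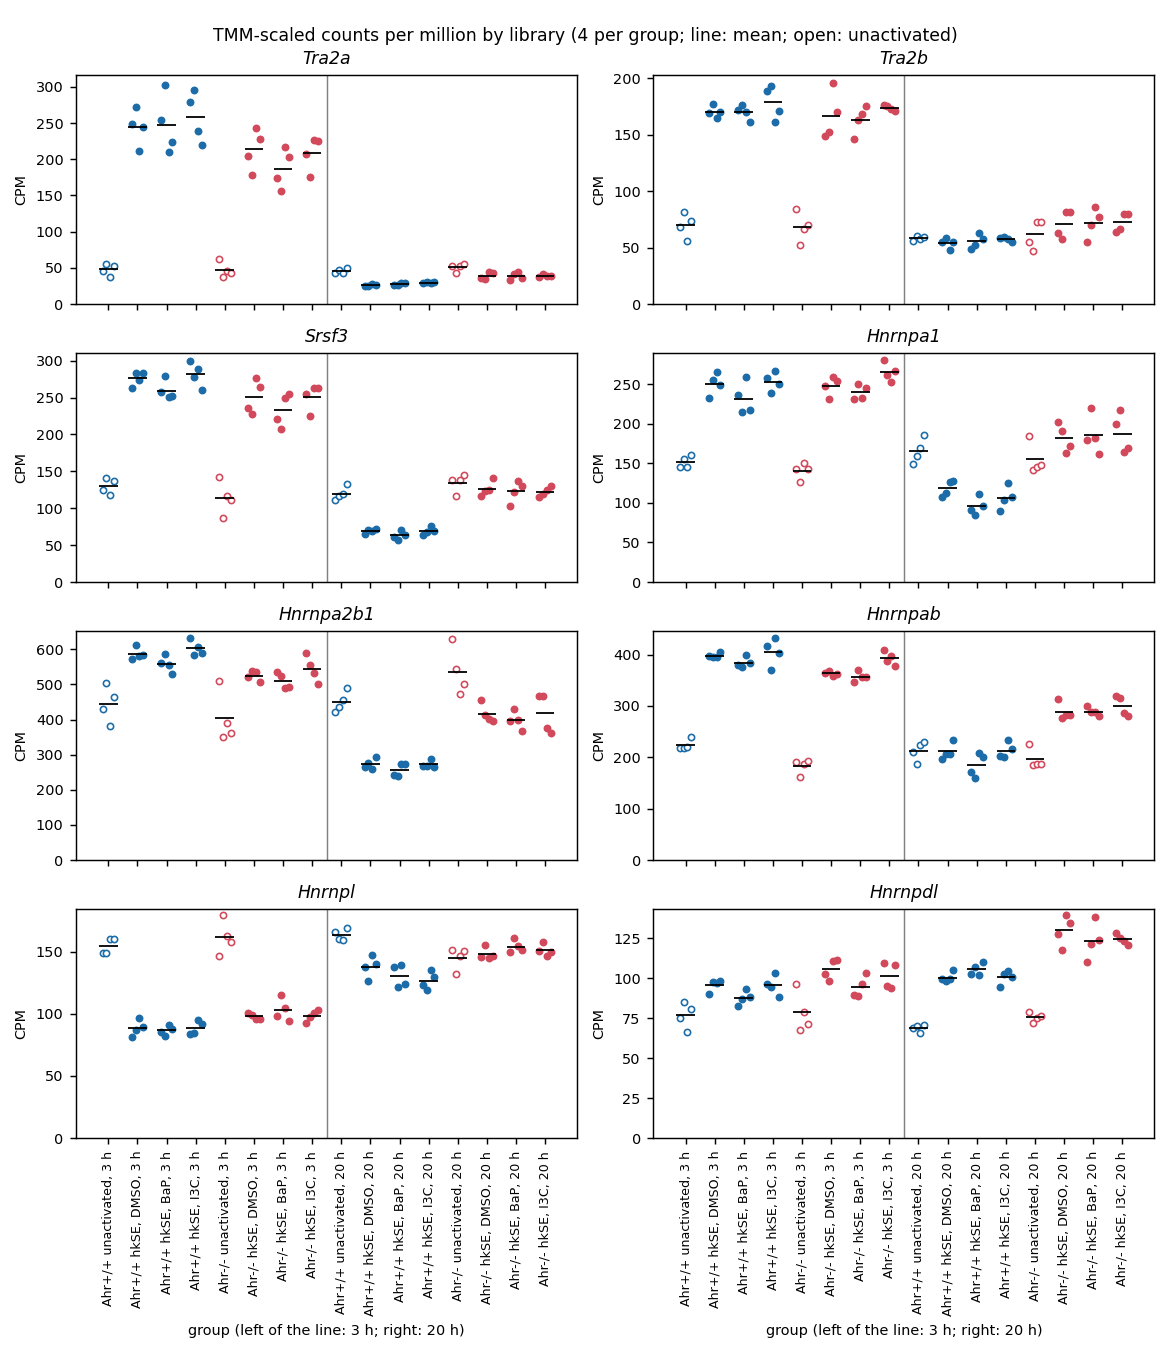
TMM-scaled CPM of 8 of the genes in each of the 64 libraries, 4 points per group with the mean as a line, open points unactivated, 3 h to the left and 20 h to the right of the grey line. For Tra2a the activated libraries at 3 h stand above every other group in both genotypes, and for Srsf3 and Hnrnpa1 the activated Ahr-/- libraries at 20 h stand above the activated Ahr+/+ ones.

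The third question is the effect of genotype itself. In unactivated BMMs no member was called by edgeR in Ahr-/- against Ahr+/+ at 3 h, where 1.21% of all genes were called, with 1 member at an unadjusted p below 0.05. The smallest p was that of Hnrnpab, with 218, 218, 220.1 and 239.9 CPM in Ahr+/+ and 191, 161, 187 and 194 CPM in Ahr-/- BMMs (log2 fold change -0.29 ± 0.07 (SE), adjusted p = 0.0125), and DESeq2 and limma each called 1 member and library totals none. At 20 h again no member was called in unactivated BMMs, against 0.702% of all genes, with 7 at an unadjusted p below 0.05, 1 called by DESeq2, 0 by limma and 0 with library totals. There the smallest p was that of Hnrnph2, with 86.1, 89.3, 93.96 and 94.9 CPM in Ahr+/+ and 110.1, 101, 107 and 115 CPM in Ahr-/- BMMs (log2 fold change 0.25 ± 0.07 (SE), adjusted p = 0.0446). Unactivated Ahr-/- BMMs at 20 h against 3 h gave 3 called members, against 6.98% of all genes. Srsf5 had 145, 121, 133 and 88.02 CPM at 3 h and 243, 249, 169 and 182 CPM at 20 h (log2 fold change 0.79 ± 0.13 (SE), adjusted p = 8.63e-06). Hnrnpa2b1 (0.41) went from 351 to 509 to 472 to 629 CPM and Hnrnpc (0.29) from 127 to 156 to 159.6 to 192 CPM. This count was 5 with the replicate block, 1 with the library identifier series as a covariate, 6 without replicate 1 of 3 h and 1 without replicate 1 of 20 h. All these libraries of 20 h share 1 identifier series, to which only replicate 1 of 3 h belongs, so series and time are hard to tell apart. With the series, Srsf5 kept its call (0.68, adjusted p = 0.00369). Hnrnpa2b1 (0.26, adjusted p = 0.12) and Hnrnpc (0.23, adjusted p = 0.142) lost theirs.

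In activated BMMs at 3 h few members differed by genotype. After DMSO 1 member was called, Sf1, against 2.83% of all genes, with 178, 183, 200.4 and 176 CPM in Ahr+/+ and 237, 250.04, 212 and 221 CPM in Ahr-/- BMMs (log2 fold change 0.32 ± 0.08 (SE), adjusted p = 0.00531). After BaP 3 were called, against 4.88%, namely Sf1 (log2 fold change 0.37 ± 0.08 (SE), adjusted p = 0.000668), Ptbp1 (log2 fold change 0.32 ± 0.07 (SE), adjusted p = 0.00146) and Hnrnpl (log2 fold change 0.25 ± 0.06 (SE), adjusted p = 0.00646). Sf1 had 195, 190.4, 208 and 191 CPM in Ahr+/+ and 256, 300.1, 228 and 232 CPM in Ahr-/- BMMs after BaP, Ptbp1 had 251, 270.4, 280.2 and 260.4 CPM and 339, 389, 291 and 310.04 CPM, and Hnrnpl had 85.7, 82.5, 90.7 and 88.2 CPM and 98.2, 115, 104 and 94.3 CPM. After I3C only Sf1 was called (log2 fold change 0.31 ± 0.08 (SE), adjusted p = 0.00719), against 2.85% of all genes, with 190.3, 199, 211 and 198 CPM in Ahr+/+ and 246, 280.4, 231 and 230.2 CPM in Ahr-/- BMMs. All these calls were higher in Ahr-/- BMMs and rested on few libraries: omission of 1 library gave 0 to 2 calls after DMSO, 1 to 6 after BaP and 0 or 1 after I3C. Library totals gave 1, 5 and 1, all higher.

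At 20 h p.a. all members called were higher in Ahr-/- BMMs. After DMSO 11 members were called higher and 0 lower, against 5.06% and 7.39% of all genes; after BaP 13 and 0, against 11.5% and 11.8%; and after I3C 10 and 0, against 7.47% and 8.17%. These comparisons share no libraries but the same 8 mice. The medians of the members were 0.20, 0.23 and 0.18, beside medians of all genes of 0.01, -0.01 and 0.01. With library totals 15, 23 and 19 members were called higher and 0 lower, with medians of 0.29, 0.34 and 0.27 beside 0.10, 0.10 and 0.10 for all genes. In all 3 comparisons 30 of the 40 members had a positive and 3 a negative estimate. The same 7 members were called each time, namely Srsf3, Hnrnpa1, Hnrnpa2b1, Hnrnpab, Hnrnph1, Hnrnpr and Sf3b3, while 6 were called in 2 comparisons, 1 in 1 and 26 in none. Between DMSO and BaP 35 of the 40 members shared their sign, against 79.99% of all genes. Between DMSO and I3C it was also 35, against 78.12%. Shares of all genes called, or of the same sign, in all 3 comparisons are not given.

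Srsf3 stood, after DMSO, at 65.3, 70.8, 68.7 and 72.4 CPM in Ahr+/+ and at 117, 124, 124 and 140.4 CPM in Ahr-/- BMMs (log2 fold change 0.87 ± 0.09 (SE), adjusted p = 6.87e-10). After BaP it stood at 61.4, 56.7, 70.2 and 64.2 CPM and 103, 122, 137 and 131 CPM (log2 fold change 0.97 ± 0.09 (SE), adjusted p = 7.31e-12), and after I3C at 63.6, 67.8, 75.4 and 68.9 CPM and 115, 119, 124 and 131 CPM (log2 fold change 0.83 ± 0.09 (SE), adjusted p = 1.48e-09). In each treatment all Ahr-/- libraries lay above all Ahr+/+ ones. Hnrnpa1, whose activated values after DMSO are given above, differed by 0.62 ± 0.09 (adjusted p = 1.91e-06). After BaP it had 91.6, 84.3, 112 and 95.9 CPM in Ahr+/+ and 179.6, 220.4, 182 and 162 CPM in Ahr-/- BMMs (log2 fold change 0.96 ± 0.10 (SE), adjusted p = 1.17e-11), and after I3C 89.99, 104, 125 and 108 CPM and 199.8, 218, 164 and 169 CPM (log2 fold change 0.81 ± 0.09 (SE), adjusted p = 2.75e-09). No library of Hnrnpa1 overlapped between the genotypes.

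Hnrnpa2b1 had 456, 412, 402 and 395 CPM in Ahr-/- BMMs after DMSO, beside the Ahr+/+ values above (log2 fold change 0.61 ± 0.09 (SE), adjusted p = 5.82e-07). After BaP it had 242, 239, 273 and 274 CPM in Ahr+/+ and 395, 429, 399 and 369 CPM in Ahr-/- BMMs (log2 fold change 0.63 ± 0.09 (SE), adjusted p = 8.95e-08), and after I3C 267, 269, 287 and 265 CPM and 466, 465, 376 and 362 CPM (log2 fold change 0.62 ± 0.09 (SE), adjusted p = 3.15e-07). Its groups, too, did not overlap. Hnrnpab differed by 0.45 ± 0.07 after DMSO. After BaP it had 172, 159, 209 and 200.1 CPM in Ahr+/+ and 299, 289, 289 and 279.6 CPM in Ahr-/- BMMs (log2 fold change 0.65 ± 0.07 (SE), adjusted p = 3.06e-10), and after I3C 202, 201, 234 and 216 CPM and 319, 315, 287 and 280.4 CPM (log2 fold change 0.49 ± 0.07 (SE), adjusted p = 5.14e-07). Tra2a after DMSO had 36.6, 34.7, 43.6 and 42.3 CPM in Ahr-/- BMMs, against 24.5 to 28.04 CPM in Ahr+/+ BMMs (log2 fold change 0.60 ± 0.13 (SE), adjusted p = 0.000345); it was called after BaP (0.47) and not after I3C (0.39, adjusted p = 0.0173), and the difference between BaP and I3C was not tested. Sf3b3 differed by 0.26, 0.56 and 0.36, Hnrnpr by 0.42, 0.50 and 0.47, and Hnrnph1 by 0.45, 0.35 and 0.36 after DMSO, BaP and I3C.

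The genotypes at 20 h also differed in their library identifiers, whose meaning the labels do not give: the activated Ahr-/- libraries of 20 h all belong to one identifier series and the activated Ahr+/+ ones to another. The series and the genotype therefore cannot be told apart within these groups, and a fit with the series as a covariate draws on other groups. That fit called 4 members after DMSO, 8 after BaP and 5 after I3C. Srsf3 (0.69, adjusted p = 0.000174), Hnrnpa1 (0.63, adjusted p = 0.00121), Hnrnpab (0.43, adjusted p = 0.002) and Sf3b3 (0.35, adjusted p = 0.00162) were the 4 called after DMSO, and they were called after BaP and I3C too. In the same fit the other 3 of the 7 members shared by the treatments lost calls. Hnrnph1 was at 0.099, -0.0033 and 0.0071 after DMSO, BaP and I3C, turning sign after BaP, and Hnrnpr at 0.21, 0.29 and 0.26, none of them called. Hnrnpa2b1 was at 0.40, 0.42 and 0.41 and called after BaP only, and Tra2a at 0.28 after DMSO and 0.16 after BaP lost both calls. Summed dendritic cell markers moved with the genotype at this time, with 20.3 to 39.6 CPM in activated Ahr+/+ libraries after DMSO and 3.82 to 8.54 CPM in Ahr-/- ones. Ccr7, which activated macrophages can also express, reached 37.8 CPM, whereas the defining markers Flt3, Zbtb46 and Xcr1 stayed at or below 1.23 CPM in all libraries, and their part in the result was not tested. In bulk RNA, fewer cells of a type and less RNA per cell cannot be told apart.

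**Figure D4:**
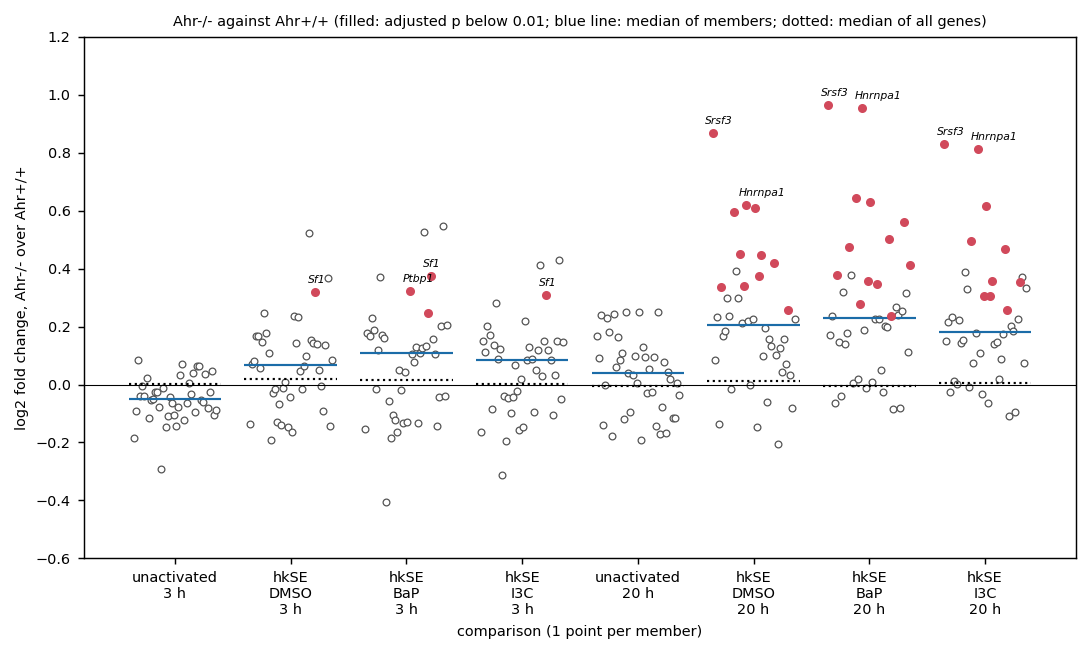
Log2 fold change of Ahr-/- over Ahr+/+ BMMs for each of the 40 genes (1 point each) in the 4 treatments at 3 h and 20 h; filled points passed an adjusted p of 0.01, the blue line is the median of the members and the dotted line that of all genes tested. No member is called in unactivated BMMs, and 11, 13 and 10 are called higher in Ahr-/- BMMs at 20 h after DMSO, BaP and I3C, on the TMM scale.

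The fourth question is whether the ligands changed the members in activated BMMs. No member was called in any of the 8 comparisons of ligand with DMSO by the main edgeR fit. For BaP in Ahr+/+ BMMs, 13 members had a positive and 27 a negative estimate at each time. For I3C there it was 34 and 6 at 3 h, and 22 and 18 at 20 h. In Ahr-/- BMMs it was 18 and 22 (BaP) and 30 and 10 (I3C) at 3 h. At 20 h it was 20 and 20, and 24 and 16. Both ligands were compared with the same DMSO libraries. Shares of all genes by sign are not given. In Ahr+/+ BMMs at 3 h p.a., 0.0482% of all genes were called for BaP and 0.131% for I3C, no member had an unadjusted p below 0.05 for either ligand, and DESeq2 and limma called none. The members' log2 fold changes ran from -0.12 (Hnrnpu) to 0.19 (Sf3a2) for BaP and from -0.06 (Hnrnpd) to 0.16 (Hnrnpa0) for I3C, with a median SE of 0.087 for each ligand. The smallest p was that of Hnrnpdl for BaP, with 82.9, 86.9, 93.6 and 88.4 CPM against 90.4, 97.4, 97.2 and 98.2 CPM after DMSO (log2 fold change -0.12 ± 0.08 (SE), adjusted p = 1), and that of U2af1 for I3C, with 67.4, 58.05, 65.3 and 59.6 CPM against 55.6, 58.9, 59.3 and 51.1 CPM (log2 fold change 0.15 ± 0.09 (SE), adjusted p = 1). Both pairs of groups overlapped.

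In Ahr+/+ BMMs at 20 h p.a., 0.234% of all genes were called for BaP and 0.509% for I3C, with 7 members at an unadjusted p below 0.05 for BaP and 1 for I3C. Sf3b3 came nearest to a call, with 77.3, 74.8, 88.1 and 75.7 CPM after BaP and 95.6, 94.2, 91.97 and 94.2 CPM after DMSO (log2 fold change -0.25 ± 0.06 (SE), adjusted p = 0.014). It was called by DESeq2, by limma on the VST values, with the replicate block (-0.25), with RLE scaling, with library totals and without BaP replicate 3 (-0.31). The most negative estimate for BaP was that of Hnrnpa1 (-0.31 ± 0.09) and the most positive that of Ptbp3 (0.31 ± 0.33). For I3C the range was -0.15 (Hnrnpa1) to 0.19 (Tra2a), and the smallest p was that of Hnrnph2, with 90.5, 89.8, 99.96 and 90.4 CPM after I3C and 82.3, 83.4, 81.97 and 84.1 CPM after DMSO (log2 fold change 0.16 ± 0.07 (SE), adjusted p = 0.679).

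In Ahr-/- BMMs, 0.0275% of all genes were called for BaP and 0.0206% for I3C at 3 h, and 0.0138% and 0.206% at 20 h. At 3 h, 3 members for BaP and 1 for I3C had an unadjusted p below 0.05, and at 20 h none for either. The smallest p at 3 h belonged to Ptbp1 for BaP, with 339, 389, 291 and 310.04 CPM against 316, 327, 275 and 270.02 CPM after DMSO (log2 fold change 0.16 ± 0.07 (SE), adjusted p = 0.789), and to Sf3b2, another SF3B subunit, for I3C, with 205, 203, 199.7 and 202 CPM against 191, 175, 178 and 177 CPM (log2 fold change 0.17 ± 0.08 (SE), adjusted p = 0.769). At 20 h it belonged to Srsf11 for BaP, with 68.1, 67.8, 92.9 and 77.8 CPM against 79.9, 73.5, 91.8 and 93.5 CPM (log2 fold change -0.14 ± 0.10 (SE), adjusted p = 1), and to U2af2 for I3C, with 142, 142, 118 and 123 CPM against 127, 131, 112 and 111 CPM (log2 fold change 0.13 ± 0.08 (SE), adjusted p = 0.999). DESeq2 and limma called no member in these 4 comparisons.

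BaP and I3C, given at different doses, were also set against each other in Ahr+/+ BMMs. No member was called by edgeR at 3 h, against 0.11% of all genes, or at 20 h, against 0.282%, with 0 and 3 members at an unadjusted p below 0.05. At 3 h Hnrnpdl had the smallest p (log2 fold change -0.12 ± 0.08 (SE), adjusted p = 1), with 96.6, 94.9, 104 and 88.5 CPM after I3C, and at 20 h Sf3b3 (log2 fold change -0.19 ± 0.06 (SE), adjusted p = 0.167), with 91.2, 86.4, 96.1 and 86.5 CPM after I3C. No member was called by edgeR for a ligand effect that differed by genotype, with 0.0138% of all genes called for BaP at 3 h, 0% for BaP at 20 h and 0% for I3C at each time. Nor was any called for a difference by time in Ahr+/+ BMMs, with 0% of all genes for BaP and 0.0275% for I3C. At an unadjusted p below 0.05 these 6 tests had 0, 2, 0, 0, 1 and 0 members in that order. The 2 members for BaP by genotype at 20 h were Sf3b3 (0.30 ± 0.08, adjusted p = 0.217) and Hnrnpa1 (0.34 ± 0.13, adjusted p = 0.854). DESeq2 called 1 member in that test, Sf3b3, and otherwise, like limma, none. Nor did DESeq2 or limma call a member for BaP against I3C, or for I3C against DMSO in Ahr+/+ BMMs at 20 h. A p that misses the threshold does not show that the values were equal.

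**Figure D5:**
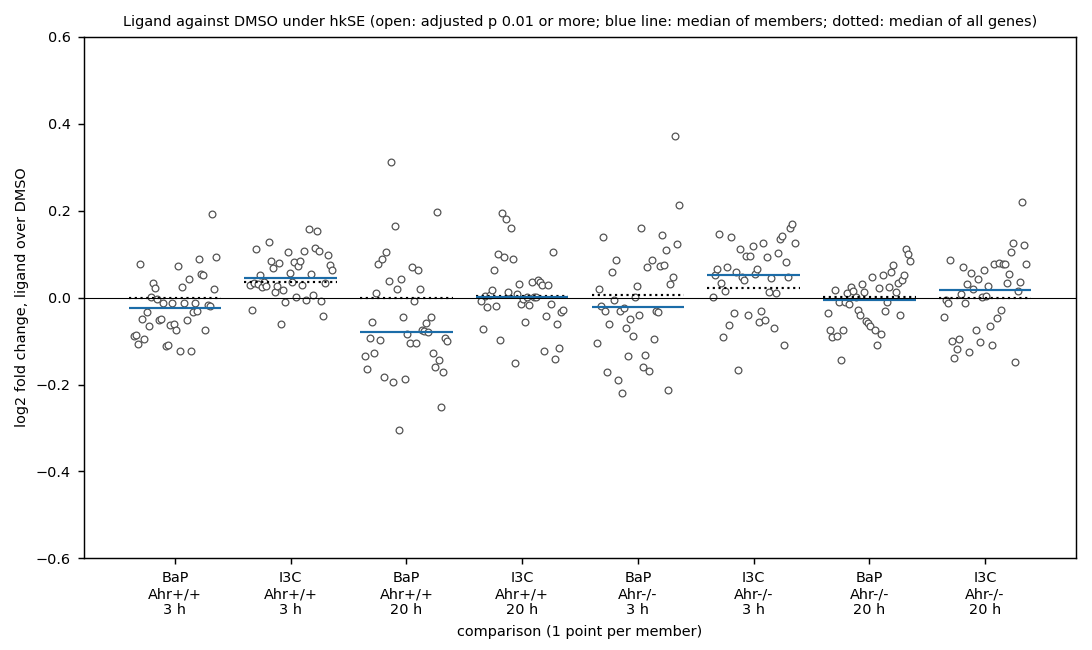
Log2 fold change of BaP or I3C over DMSO in activated BMMs for each of the 40 genes (1 point each), by genotype and time; open points had an adjusted p of 0.01 or more, the blue line is the median of the members and the dotted line that of all genes tested. No point is filled, and the estimates lie between -0.31 and 0.37.

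The members act together with other splicing genes, of which 8 lists with 134 genes were compiled and 128 tested. In Ahr+/+ BMMs at 3 h p.a., 46 of the 128 were called higher and 18 lower on the TMM scale, but 8 higher and 83 lower with library totals, and at 20 h 42 and 24 became 12 and 58. In Ahr-/- BMMs the TMM scale gave 55 and 13 for 3 h, which became 10 and 83, and 39 and 16 for 20 h, which became 14 and 43. The backgrounds of the TMM scale are those given above, and counts with library totals stand in parentheses below, higher before lower. With hk S.E. at 3 h, the kinases that phosphorylate SR proteins (9 genes) had 1 called higher and 4 lower (0 and 8), with Srpk3 at -3.05 ± 0.72 and Srpk2 at -1.31 ± 0.13, and the exon junction complex and NMD list (15 genes) had 5 higher and 3 lower (2 and 9), led by Magohb at 2.89 ± 0.18, a core subunit of the junction complex. Of the U2 snRNP genes beyond the members, 5 of 10 were higher and none lower (0 and 5), with Rbm17 at 0.86 ± 0.13 and the helicase Dhx15 at 0.84 ± 0.12. The Sm core and U1 list had 4 of 13 higher and 2 lower (0 and 7; Luc7l3 0.83 ± 0.12, Snrpd1 0.72 ± 0.13), the tri-snRNP list 4 of 21 higher and none lower (1 and 18; Prpf4 1.54 ± 0.08, Snrnp27 0.74 ± 0.15) and the list of the Prp19 complex and late factors 7 of 18 higher and 4 lower (1 and 15; Snw1 1.07 ± 0.06, Cwc15 0.81 ± 0.15). Further hnRNP and SR-related genes had 18 of 30 higher and 3 lower (4 and 15; Rbm10 -1.21 ± 0.13, Cirbp -1.10 ± 0.14), and tissue and signal regulators 2 of 12 higher and 2 lower (0 and 6; Tia1 -1.24 ± 0.18, Rbm4b -1.08 ± 0.21). With library totals the genes named here had the same sign, but Luc7l3, Snrpd1, Rbm17, Dhx15, Snrnp27 and Cwc15 were not called.

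At 20 h in Ahr+/+ BMMs, 11 of the 15 exon junction and NMD genes were called higher and 1 lower (4 and 2; Magohb 2.43 ± 0.17, Smg9 1.60 ± 0.13), and of the SR protein kinases 4 of 9 were higher and 1 lower (1 and 3; Srpk3 -4.14 ± 0.56, Clk3 1.00 ± 0.10). The Prp19 and late factors had 8 of 18 higher and none lower (2 and 5; Snw1 0.86 ± 0.06, Slu7 0.75 ± 0.06) and the tri-snRNP list 3 of 21 higher and 6 lower (1 and 15; Ppih -1.53 ± 0.18, Snrnp27 1.34 ± 0.14). The Sm core and U1 list had 1 of 13 higher and 4 lower (1 and 8; Snrpg -0.75 ± 0.13, Luc7l 0.73 ± 0.07), the U2 list 3 of 10 higher and 2 lower (0 and 6; Sf3b6 0.56 ± 0.08, Rbm17 0.42 ± 0.12), further hnRNP and SR-related genes 8 of 30 higher and 5 lower (3 and 14; Taf15 1.16 ± 0.12, Pspc1 -1.09 ± 0.11) and the tissue and signal regulators 4 of 12 higher and 5 lower (0 and 5; Mbnl3 -2.60 ± 0.43, Celf2 -1.66 ± 0.23). Of the genes named at 20 h, all had the same sign with library totals, and Sf3b6 and Rbm17 were not called there. In Ahr-/- against Ahr+/+ BMMs at 20 h p.a., 13 of the 128 were called higher and 2 lower after DMSO, 25 and 7 after BaP, and 20 and 3 after I3C. The backgrounds on the TMM scale are those given for the members. With library totals the counts were 22 and 1, 37 and 4, and 31 and 1. Ligand against DMSO called 1 of the 128, for BaP in Ahr+/+ BMMs at 20 h.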

How the data were processed

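Polyadenylated RNA of 64 libraries (stranded TruSeq) was sequenced and, per the labels and the study's methods, the authors demultiplexed reads with bcl2fastq 2.19.0.316, aligned them with HISAT2 2.1.0 to mm10 (GENCODE M22) and deposited raw counts per gene from htseq-count 0.9.1 (intersection-strict, reverse strand), which is what the tests used. The authors also deposited a VST table, log2-like values of 14549 genes, used here only in an alternative. Entries that name no gene (19.2 to 25.05% of a library) were left out of library sizes. GENCODE M21 gave exon lengths and positions.

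Here, edgeR 4.0.16 (R 4.3.3) was run with filterByExpr (minimum count 10, 14537 of 55487 genes), TMM scaling and a quasi-likelihood fit of 16 group means over all 64 libraries (48 residual degrees of freedom), with Benjamini-Hochberg adjustment over all genes and a threshold of 0.01. CPM are scaled by TMM. The steps were run on simulated counts in which few genes changed, by rises and falls of like size. The bulk of genes did not shift there, so that run does not test the scaling.

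The members and lists were chosen with earlier results of these data known. Members with values in every library were the 4 called members with the largest rise and fall in each Ahr+/+ activation, up to 4 called members of each genotype, ligand and interaction comparison or the one with the smallest p, and paralogue pairs; Hnrnpa1, Hnrnpa2b1 and Hnrnpab in further groups were chosen after their values were seen. Replicate numbers were taken as the 4 mice of a genotype: deviations of libraries with the same number correlated at -0.211 to 0.644 in Ahr-/- (26 of 28 pairs of libraries above 0.1) and at 0.0347 to 0.255 in Ahr+/+ BMMs (17 of 28). Alternatives were RLE scaling, library totals alone, no filter, a replicate block, the library identifier series, the compared groups only, DESeq2 1.42.0, limma 3.58.1 on the VST values, and omission of each library in turn. Libraries held 12152496 to 233047331 counts (median 24499165), and p-values measure the spread between these libraries.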

Additional observations from a re-analysis of the deposited data

Results flagged for a closer look

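Single libraries stood apart within their group of 4 in 11 of 147 group-and-gene sets tested with Dixon's ratio against its 95% critical value, a limit that chance passes in about 1 of 20 sets. These were, on the scale of CPM, unactivated Ahr+/+ BMMs at 3 h, replicate 4, for Hnrnpab (239.9), and activated Ahr+/+ BMMs at 3 h after DMSO, replicate 4 for Sf3a1 (41.4) and replicate 1 for Hnrnpdl (90.4). At 20 h they were, in Ahr+/+ BMMs, replicate 4 after DMSO for Hnrnpdl (105.0), unactivated replicate 4 for Hnrnpm (156) and replicate 3 after I3C for Hnrnph2 (100.0) and Hnrnpa2b1 (287). In Ahr-/- BMMs at 20 h they were unactivated replicate 1 for Hnrnpa1 (185) and Hnrnpab (226) and replicate 1 after DMSO for Hnrnpab (314). The mean log2 CPM of the 40 members stood apart in Ahr-/- BMMs at 3 h after DMSO in replicate 3 (7.18).

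The response to hk S.E. differed between 20 h and 3 h by a test of the difference itself in Ahr+/+ BMMs for Tra2a (-3.16), Srsf3 (-1.88), Tra2b (-1.40) and Hnrnpa1 (-1.21), and in Ahr-/- BMMs for Tra2a (-2.57), Srsf3 (-1.23), Tra2b (-1.09) and Hnrnph2 (-0.95), all on the log2 scale. It differed between Ahr-/- and Ahr+/+ BMMs at 20 h for Hnrnpa1 (0.71), Srsf3 (0.70), Hnrnpab (0.57) and Sf3b3 (0.37), where the value is the response in Ahr-/- minus that in Ahr+/+ BMMs.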

How the results depend on the processing

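Under the 8 alternative fits, no member named in a comparison changed sign except with library totals alone (28 cases) and with the library identifier series (1 case). The calls of Tra2a, Tra2b and Srsf3 (higher) and of Hnrnpl, Hnrnpr and Sf3a1 (lower) in Ahr+/+ BMMs at 3 h were kept with library totals. With the replicate block no member named in an activation, time or ligand comparison lost its call; the block lies within genotype, so the comparisons of Ahr-/- with Ahr+/+ BMMs had no such fit. Library totals for the further splicing lists were added after seeing the data. The cause of each change was not tested. With library totals alone, the members called were 3 higher and 21 lower for activation of Ahr+/+ at 3 h, 0 higher and 25 lower for activation of Ahr+/+ at 20 h, 6 higher and 15 lower for activation of Ahr-/- at 3 h, 4 higher and 19 lower for activation of Ahr-/- at 20 h, 9 higher and 11 lower for the change of response with time in Ahr+/+, 9 higher and 7 lower for the change of response with time in Ahr-/-, 1 for BaP in Ahr+/+ at 20 h, 5 for genotype after BaP at 3 h, 23 for genotype after BaP at 20 h and 19 for genotype after I3C at 20 h. Library totals alone gave a median log2 fold change of -0.27 for activation of Ahr+/+ at 3 h, -0.46 for activation of Ahr+/+ at 20 h, -0.13 for activation of Ahr-/- at 3 h, -0.27 for activation of Ahr-/- at 20 h, -0.0019 for the change of response with time in Ahr+/+, -0.0011 for the change of response with time in Ahr-/-, 0.22 for activation by genotype at 20 h, 0.11 for genotype after DMSO at 3 h, 0.29 for genotype after DMSO at 20 h, 0.0040 for I3C in Ahr+/+ at 3 h, 0.025 for I3C in Ahr-/- at 3 h, -0.029 for BaP against I3C at 3 h, 0.15 for genotype after BaP at 3 h, 0.34 for genotype after BaP at 20 h, 0.14 for genotype after I3C at 3 h and 0.27 for genotype after I3C at 20 h. Opposite signs, with the cause not tested, were found for activation of Ahr+/+ at 3 h in Srsf4 (-0.18), Srsf6 (-0.27), Hnrnpa2b1 (-0.27), Hnrnpc (-0.069), Hnrnpdl (-0.36), Hnrnpk (-0.065), Hnrnpm (-0.17), Ptbp1 (-0.28), U2af1 (-0.27), U2af2 (-0.29) and Sf1 (-0.096). For activation of Ahr+/+ at 20 h the sign turned in Srsf11 (-0.018), Hnrnpf (-0.066), Ptbp1 (-0.026) and U2af1 (-0.050). For activation of Ahr-/- at 3 h the sign turned in Srsf6 (-0.096), Srsf11 (-0.28), Hnrnpa2b1 (-0.29), Hnrnpc (-0.15), Hnrnpdl (-0.25), Hnrnpf (-0.38), Hnrnph1 (-0.31), Hnrnpk (-0.014), Hnrnpm (-0.10), U2af1 (-0.078) and U2af2 (-0.18). For the change of response with time in Ahr+/+ the sign turned in Srsf7 (0.0057). For the change of response with time in Ahr-/- the sign turned in Ptbp1 (0.047). With the library identifier series as a covariate, the members called were 4 for genotype after DMSO at 20 h, 1 for time in unactivated Ahr-/-, 8 for genotype after BaP at 20 h and 5 for genotype after I3C at 20 h. The library identifier series as a covariate gave a median log2 fold change of 0.48 for activation of Ahr+/+ at 3 h, 0.13 for genotype after DMSO at 20 h, 0.15 for genotype after BaP at 20 h and 0.080 for genotype after I3C at 20 h. Opposite signs, with the cause not tested, were found for genotype after BaP at 20 h in Hnrnph1 (-0.0033). With a fit of only the groups compared, the members called were 1 lower for activation of Ahr-/- at 20 h, 2 higher for the change of response with time in Ahr+/+, 1 higher for the change of response with time in Ahr-/-, 2 for activation by genotype at 20 h, 0 for genotype after DMSO at 3 h, 6 for genotype after DMSO at 20 h, 0 for time in unactivated Ahr-/-, 0 for genotype after BaP at 3 h and 0 for genotype after I3C at 3 h. A fit of only the groups compared gave a median log2 fold change of 0.49 for activation of Ahr+/+ at 3 h, 0.0046 for I3C in Ahr+/+ at 3 h, 0.029 for I3C in Ahr-/- at 3 h and -0.033 for BaP against I3C at 3 h. With the replicate block, the members called were 2 lower for activation of Ahr-/- at 3 h, 3 higher for the change of response with time in Ahr+/+, 2 for time in unactivated Ahr+/+, 5 for time in unactivated Ahr-/- and 1 for BaP in Ahr+/+ at 20 h. With no filter on low counts, the members called were 2 lower for activation of Ahr-/- at 20 h, 1 higher for the change of response with time in Ahr-/-, 0 for genotype after DMSO at 3 h and 0 for genotype after I3C at 3 h. No filter on low counts gave a median log2 fold change of 0.050 for BaP by genotype at 3 h. With RLE scaling, the members called were 1 higher for the change of response with time in Ahr-/- and 1 for BaP in Ahr+/+ at 20 h. RLE scaling gave a median log2 fold change of 0.46 for activation of Ahr+/+ at 3 h, -0.37 for the change of response with time in Ahr+/+ and -0.47 for the change of response with time in Ahr-/-. With DESeq2, the members called were 1 higher for the change of response with time in Ahr-/-, 1 for genotype in unactivated BMMs at 3 h, 1 for genotype in unactivated BMMs at 20 h, 2 for genotype after DMSO at 3 h, 5 for time in unactivated Ahr-/-, 1 for BaP in Ahr+/+ at 20 h, 1 for BaP by genotype at 20 h and 5 for genotype after BaP at 3 h. DESeq2 gave a median log2 fold change of 0.46 for activation of Ahr+/+ at 3 h, -0.37 for the change of response with time in Ahr+/+ and -0.47 for the change of response with time in Ahr-/-. With limma on the VST values, the members called were 1 higher for the change of response with time in Ahr-/-, 1 for genotype in unactivated BMMs at 3 h and 1 for BaP in Ahr+/+ at 20 h. Limma on the VST values gave a median log2 fold change of -0.37 for the change of response with time in Ahr+/+, -0.45 for the change of response with time in Ahr-/-, 0.16 for genotype after DMSO at 20 h and 0.15 for genotype after I3C at 20 h.

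Omitting 1 library at a time moved some counts of called members: 1 to 2 higher for the change of response with time in Ahr-/-, 1 to 2 higher for the change of response with time in Ahr+/+, 2 to 4 lower for activation of Ahr-/- at 20 h, 1 to 2 lower for activation of Ahr-/- at 3 h, 1 to 6 for time in unactivated Ahr-/-, 0 to 1 for BaP in Ahr+/+ at 20 h, 1 to 6 for genotype after BaP at 3 h, 0 to 2 for genotype after DMSO at 3 h and 0 to 1 for genotype after I3C at 3 h. The members' median ranged over -0.034 to 0.0053 for BaP in Ahr-/- at 3 h, -0.059 to -0.010 for BaP by time in Ahr+/+, 0.014 to 0.055 for BaP by genotype at 3 h, -0.069 to -0.0079 for I3C by time in Ahr+/+, -0.019 to 0.057 for I3C by genotype at 20 h, 0.080 to 0.14 for genotype after BaP at 3 h, 0.14 to 0.22 for genotype after DMSO at 20 h, 0.046 to 0.12 for genotype after I3C at 3 h, -0.44 to -0.32 for the change of response with time in Ahr-/-, -0.39 to -0.25 for the change of response with time in Ahr+/+, 0.11 to 0.19 for activation by genotype at 20 h and 0.38 to 0.47 for activation of Ahr+/+ at 3 h. The libraries behind these moves were, for genotype after DMSO at 3 h, Ahr+/+ replicates 1, 2 and 4 and Ahr-/- replicates 1 and 2 (0 called without any of them) and Ahr+/+ replicate 3 (2 called). For genotype after BaP at 3 h they were Ahr-/- replicates 2 (1 called), 3 (6 called) and 4 (5 called), and for genotype after I3C at 3 h Ahr+/+ replicates 1, 2 and 4 and Ahr-/- replicate 2 (0 called). Without unactivated Ahr-/- replicate 3 or 4, 2 members were called lower at 3 h, and without unactivated Ahr+/+ replicate 3 of 3 h or DMSO replicate 3 of 20 h, 2 were called higher in the change with time.

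Gene-level counts cannot separate coding from NMD transcripts. The least count of a member in any library was 343. The SE of Ptbp3 was the largest of the members, up to 0.33 for ligand against DMSO and 0.47 for the I3C effect by genotype at 20 h.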
